A study of Ovis aries with 18 samples.

Results

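MAGEA10, MAGEB18 and FATE1 are cancer-testis antigens, genes whose expression in healthy adults is largely restricted to the testis and which many tumours switch on again. The 3 were taken by their IDs in the count files, ENSOARG00000008422 for MAGEA10, ENSOARG00000018216 for MAGEB18 and ENSOARG00000008619 for FATE1, out of 29589 gene IDs. All 3 passed the filter on low counts, as did 18640 IDs in all. They were chosen by their lower counts in lambs of the gossypol-rich diet, so the diet difference below is a description of how they were chosen and carries no test. The files pair no symbols with IDs. The names come from labelled points in the study's plot of expression changes, matched to the nearest ID by eye, so each name is as certain as that match.

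The samples were testicles taken at 60 days from 18 male lambs of the Santa Inês breed, with 1 library per lamb. The diets were supplements fed to the mothers throughout pregnancy and the first 60 days of suckling. Mothers of 9 lambs ate corn and soybean (control diet), and those of the other 9 ate a cottonseed ration (gossypol-rich diet). Gossypol is a phenolic compound of the cotton plant that is toxic to the male germ line. Lambs of both diets also had hay and a corn and soybean concentrate. Control libraries held 14468612 to 22334428 counts (median 19271048), and gossypol libraries held 15240624 to 20660132 (median 19037075).

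MAGE proteins share a conserved fold, the MAGE homology domain, through which many of them bind RING-type ubiquitin ligases and steer which proteins those ligases mark. MAGEA10 belongs to the MAGE-A branch and MAGEB18 to the MAGE-B branch, both encoded by the X chromosome and best known from germ cells and tumours. FATE1, fetal and adult testis expressed 1, is an X-linked protein of the outer mitochondrial membrane that acts where mitochondria meet the endoplasmic reticulum and opposes cell death. At this age the sheep testis is prepubertal, with seminiferous cords of Sertoli cells and early germ cells. The libraries are of whole tissue, in which fewer cells of a type and less RNA per cell cannot be told apart. With no symbols for the IDs at hand here, they were not checked against marker genes of testis cells.

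Expression is given as CPM, read counts scaled to the size of each library with TMM normalization factors. MAGEA10 was abundant in 4 control lambs only, at 40.6 CPM in H20, 66.3 in H06, 90.2 in H29 and 154 in H22. The other 5 control lambs had 1.90 CPM (H31), 1.98 (H32), 2.16 (H39), 2.99 (H44) and 5.76 (H37). In the 9 gossypol lambs it ran from 2.05 CPM (H25) to 6.05 CPM (H41) with a median of 3.43 CPM. The 5 lower control lambs thus lay at or around the gossypol levels, and 2 of them, H31 and H32, lay below every gossypol lamb.

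Because of this shape, the mean and the median of MAGEA10 gave very different diet differences. Control lambs averaged 40.7 ± 53.7 CPM and gossypol lambs 3.52 ± 1.17 CPM (SD, n = 9 each), an 11.6-fold difference, while the medians of 5.76 and 3.43 CPM differed 1.68-fold. The log2 fold change of edgeR's quasi-likelihood fit, gossypol against control, was -3.53 (standard error 0.78). limma-voom, which averages on a log scale, gave -1.90 for the same lambs.

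MAGEB18 was also highest in the same control lambs, at 21.0 CPM in H29, 25.7 in H06, 26.6 in H20 and 46.2 in H22, but H37 stood with them at 13.5 CPM. The other 4 control lambs had 1.39 CPM (H32), 1.92 (H44), 2.64 (H39) and 2.90 (H31). The gossypol lambs ran from 0.864 CPM (H25) to 6.44 CPM (H01) with a median of 1.69 CPM. The 4 lower control lambs all lay within the gossypol range. Here the fold between diets was 5.91 by the means (15.8 ± 15.5 and 2.67 ± 2.04 CPM, SD, n = 9 each) and 7.97 by the medians (13.5 and 1.69 CPM), and the fitted log2 difference was -2.56 with a standard error of 0.62. H37, the middle control lamb in MAGEB18, was on the high side of the gap.

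FATE1 had by far the most counts of the 3, from 347 to 29400 per lamb, so that counting error weighs least in it. Levels of different genes are not compared here, since the CPM is not divided by gene length. In control lambs FATE1 was 1289 CPM in H22, 1072 in H29, 847 in H20 and 755 in H06, then 285 in H37, 212 in H31, 161 in H32, 74.2 in H39 and 51.8 in H44, a more gradual series than in the MAGE genes. In gossypol lambs it ran from 19.5 CPM (H08) to 218 CPM (H01), with H48 at 209 CPM and a median of 49.1 CPM. The lowest 4 control lambs lay within that range. The means of 528 ± 468 and 87.5 ± 74.2 CPM (SD, n = 9 each) differed 6.03-fold and the medians 5.81-fold, and the fitted log2 difference was -2.59 with a standard error of 0.60.

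**Figure D1:**
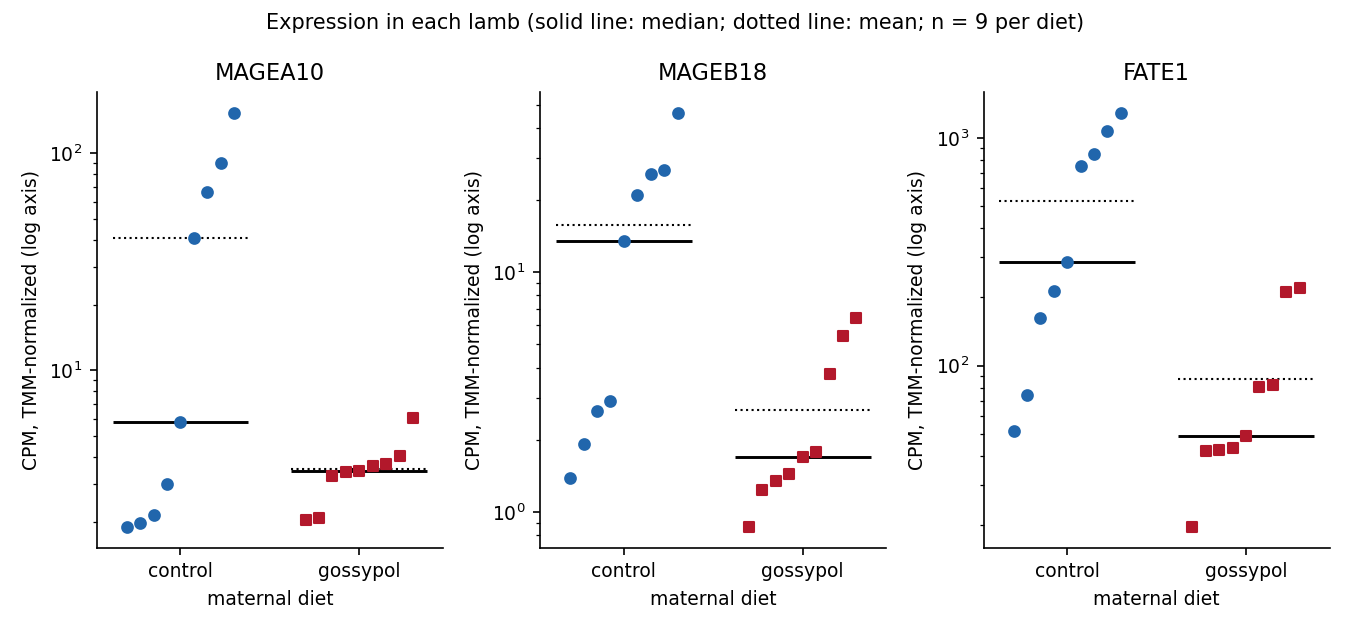
TMM-normalized CPM (log axis) of MAGEA10, MAGEB18 and FATE1 by maternal diet, with 1 point per lamb (n = 9 per diet), the median as a solid line and the mean as a dotted line. In MAGEA10 the control median (5.76 CPM) sits near the gossypol lambs and far below the control mean (40.7 CPM), while in MAGEB18 and FATE1 both control lines lie above every gossypol lamb.

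The diets overlapped in all 3 genes. Over all 18640 tested IDs, 0.00536% had every gossypol lamb below every control lamb. In MAGEA10 4 of the 9 control lambs exceeded all gossypol lambs, and 11.6% of all tested IDs had at least 4 such lambs. In MAGEB18 and in FATE1 the number was 5, and 6.36% of all tested IDs had at least 5.

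The spread between lambs differed between diets most in MAGEA10. The SD of its log2 CPM was 2.62 in control and 0.46 in gossypol lambs, a ratio of 5.72, and only 4 of the 18640 tested IDs (0.0215%), MAGEA10 among them, had a ratio as large. Between the lowest and the highest lamb MAGEA10 varied 81.2-fold in the control diet and 2.95-fold in the gossypol-rich diet. In MAGEB18 the SDs were 1.90 and 0.97 (ratio 1.96, reached by 4.63% of IDs), and in FATE1 1.71 and 1.14 (a ratio reached by 13.3% of IDs). The median ratio over all tested IDs was 0.934. MAGEB18 and FATE1 thus kept a 7.46-fold and an 11.2-fold range between gossypol lambs, in which MAGEA10 was nearly flat. These ratios compare the same lambs as the choice of the genes and are given without a test.

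The same 4 control lambs, H06, H20, H22 and H29, were the highest of all 18 in each of the 3 genes. The genes were chosen for higher counts in control lambs, so control lambs at the top follow in part from that choice. These lambs were also the highest 4 in 619 tested IDs (3.32%), so the pattern was not limited to these genes. The fifth highest lamb differed. In MAGEB18 and FATE1 it was control lamb H37, which completed a top 5 shared by 833 IDs (4.47%), whereas in MAGEA10 it was gossypol lamb H41, a top 5 shared by 75 IDs (0.402%).

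H06, H20, H22, H29 and H37 also stood apart in the whole transcriptome. On the first principal component of log2 CPM over all tested IDs, which held 40.1% of the variance, the 5 highest scores belonged to H29 (89.0), H22 (77.6), H20 (76.1), H37 (57.1) and H06 (53.2). Next came gossypol lambs H48 (28.8) and H12 (4.27), while the other 11 lambs had scores between -78.5 and -11.6. The part of this library-wide difference in the levels of the 3 genes was not tested. The totals and TMM factors of the 5 lambs with the highest scores lay within the range of the other libraries except for H22, which had the most counts, and H29, which had the lowest factor (0.884).

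**Figure D2:**
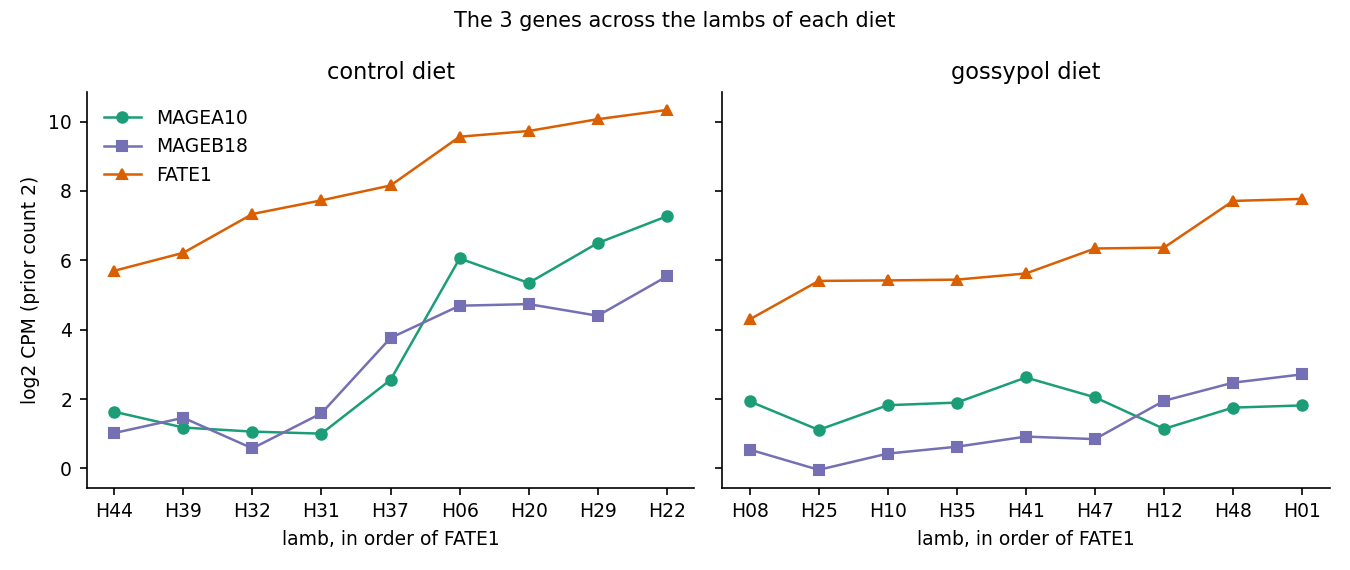
log2 CPM (prior count of 2) of the 3 genes in each lamb, with the lambs of each diet placed in order of their FATE1 level. In control lambs all 3 lines climb to the same 4 lambs on the right, while in gossypol lambs MAGEB18 climbs with FATE1 and MAGEA10 stays between 1.11 and 2.62.

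The genes were next compared from lamb to lamb within each diet, which does not use the difference between diets. In the control diet the lambs fell into separate clusters in MAGEA10, with a gap between H37 and H20 that spanned 0.446 of the range, and in MAGEB18, with a gap between H31 and H37 of 0.438 of the range. The clusters held 4 or 5 lambs. No correlation was computed for a pair that holds a gene with such clusters, and every control pair includes one of these genes. Whether the 3 genes vary together among control lambs beyond this division was therefore not tested. Within the 4 high control lambs, H22 had the highest value in all 3 genes, but the order of the others changed from gene to gene.

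In the gossypol lambs, MAGEB18 and FATE1 varied together. Pearson's r of log2 CPM was 0.877 (2-sided exact permutation test over 362880 pairings, p = 0.00179, n = 9) and Spearman's rho was 0.933 (exact p = 7.5e-04, n = 9). It was the only relation of the 6 planned that was tested, the other 5 being left out by the rule on separate clusters. With those 5 counted at a p of 1, the Benjamini-Hochberg adjusted p of this r was 0.0107 (exact permutation test, n = 9). H01 and H48 were the highest lambs in both genes and the 2 farthest from the median of MAGEB18. Without them r was 0.581 (exact permutation test, p = 0.169, n = 7) and rho was 0.857, so the linear relation rests on those 2 lambs. MAGEA10 fell just past the limit for separate clusters in this diet, with a gap of 0.406 of its range against a limit of 0.4. Its 2 relations in this diet were not tested. No correlation was made within the 7 lambs above the gap either. The limit of 0.4 was a choice, and MAGEA10 lay close to it. MAGEB18 and FATE1 lay just under it in these lambs, with gaps of 0.375 and 0.387. A slightly lower limit would have left their relation untested too. H01 and H48, the highest gossypol lambs for MAGEB18 and FATE1, had MAGEA10 at 3.41 and 3.26 CPM, near its median, and the highest gossypol lamb for MAGEA10, H41, had MAGEB18 at 1.78 CPM and FATE1 at 49.1 CPM.

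**Figure D3:**
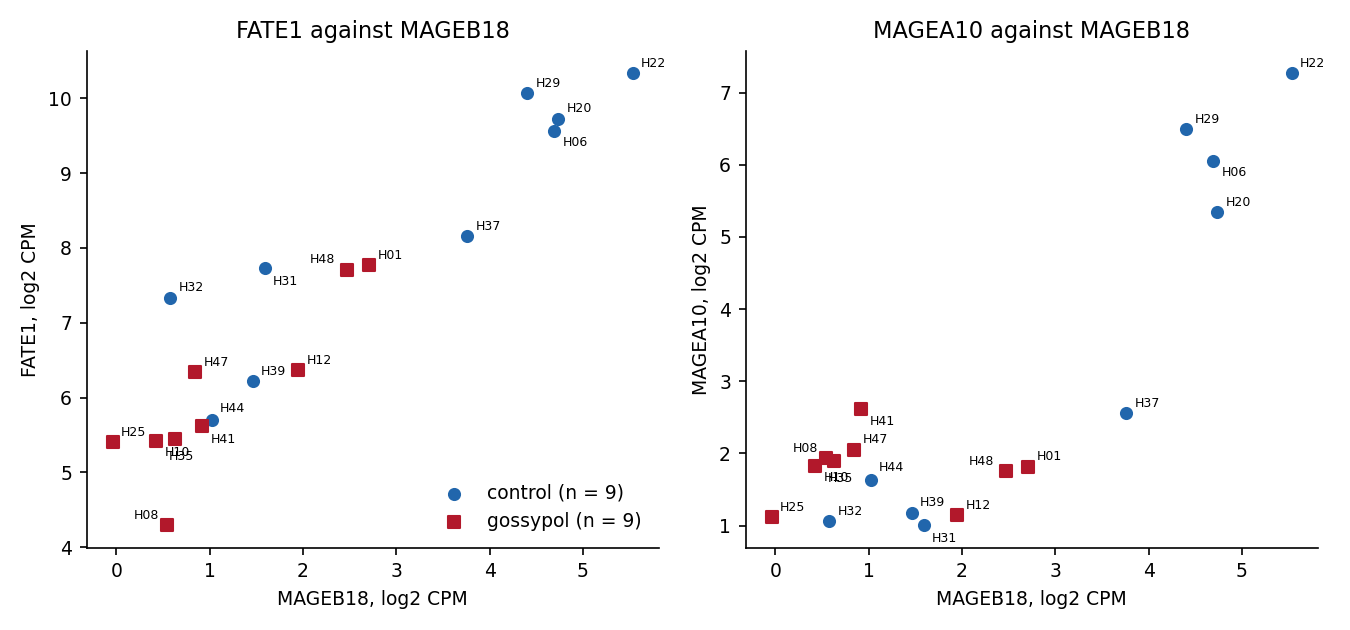
log2 CPM of FATE1 (left) and MAGEA10 (right) against MAGEB18 in the 9 control lambs (circles) and the 9 gossypol lambs (squares). Lambs high in MAGEB18 are high in FATE1, whereas MAGEA10 is high in only 4 control lambs and, in H37, stays at 2.55 while MAGEB18 is at 3.76.

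Ratios of counts within a lamb do not depend on how libraries are scaled. MAGEA10 took 29.97% of the MAGEA10 and MAGEB18 counts together in H37 (exact 95% binomial interval 25.4 to 34.9%) and 81.1% in H29 (79.3 to 82.8%), the lowest and the highest control lambs. The intervals cover counting error only. In the 4 high control lambs the share was 60.5% (H20), 72.0% (H06), 76.9% (H22) and 81.1% (H29). H37, which shared the high MAGEB18 of these lambs, thus had a different balance of the 2 genes.

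The shares of the gossypol lambs left a wide gap. In H01, H12 and H48 MAGEA10 took 34.6, 35.8 and 37.5% of the 2 genes' counts, while in the other 6 lambs it took between 70.4 and 77.2%. The intervals of the 3 lambs reached at most 45.1% and those of the 6 lambs began at 56.4%. Lambs of a diet differed beyond counting error throughout these libraries, so the gap does not by itself show distinct levels. It lay mainly in MAGEB18, at 3.76 to 6.44 CPM in the 3 lambs and 0.864 to 1.78 CPM in the other 6. MAGEA10 was 2.097 to 3.41 CPM in the 3 and 2.05 to 6.05 CPM in the 6. Of the 6 only H25 was not above all 3 in MAGEA10, the next lowest being H10 at 3.43 CPM. FATE1 was 82.3 to 218 CPM in the 3 lambs and 19.5 to 80.9 CPM in the 6. H48, H12 and H01 were also the gossypol lambs with the highest scores on the first principal component (28.8, 4.27 and -26.9), the other 6 having scores between -78.5 and -31.9. The split thus moves with the library-wide axis, and its part in the split, as in the relation of MAGEB18 and FATE1 among gossypol lambs, was not tested. The 3 lambs were told apart by the counts themselves, and no test was made between them and the 6.

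**Figure D4:**
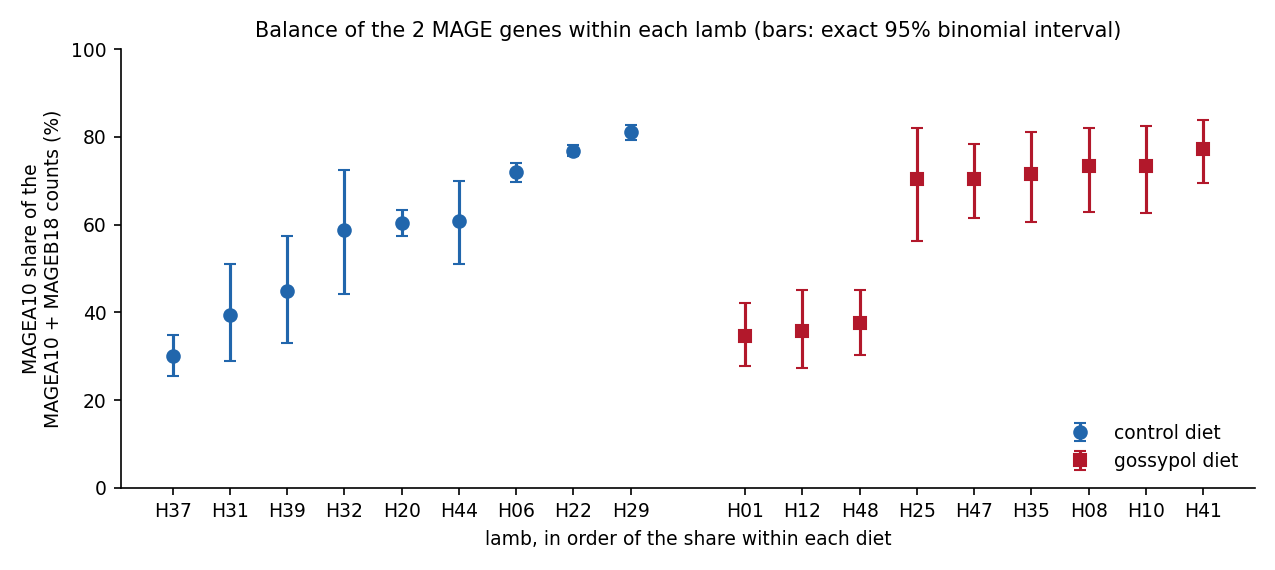
MAGEA10 counts as a percent of the MAGEA10 and MAGEB18 counts in each lamb, in order of the share within each diet, with exact 95% binomial intervals as bars. Gossypol lambs H01, H12 and H48 sit between 34.6 and 37.5% and the other 6 between 70.4 and 77.2%, while control lambs spread from 29.97 to 81.1%.

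FATE1 kept a steadier ratio to MAGEB18 than to MAGEA10. In the gossypol lambs there were between 14.5 and 48.9 FATE1 counts for each MAGEB18 count (median 33.8) and in control lambs between 21.2 and 116 (median 29.4), the highest being H32, with 21 MAGEB18 counts. The SD of the log2 ratio was 0.55 in gossypol and 0.81 in control lambs. For FATE1 counts per MAGEA10 count the SDs were 1.27 and 1.32, with ranges from 5.26 to 64.1 and from 8.37 to 112. Between the 2 MAGE genes the SDs were 1.14 and 1.10.

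To place the 3 genes among all others, tested IDs were ordered by likeness, the Pearson's r between deviations of log2 CPM from the diet means over all 18 lambs. This order is a description, since the few control lambs in which many IDs were high may weigh much in it. Their part in the likeness was not tested. Among the 18639 other IDs, FATE1 stood 96th in likeness to MAGEB18, and MAGEB18 stood 97th in likeness to FATE1. MAGEB18 stood 137th in likeness to MAGEA10, and FATE1 417th. MAGEA10 stood 441st in likeness to MAGEB18 and 849th in likeness to FATE1. No member of the 3 was thus the closest ID to another.

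The order changed when each diet was taken alone. It is given here as a description, which runs across the separate clusters above in control lambs and, for MAGEA10, in gossypol lambs. In the gossypol lambs FATE1 stood 63rd in likeness to MAGEB18, and MAGEB18 116th in likeness to FATE1. MAGEA10 stood 10093rd and 10758th in likeness to MAGEB18 and FATE1, behind 54.1% and 57.7% of the other IDs. In control lambs alone MAGEA10, and not FATE1, was the closer of the 2 to MAGEB18, while MAGEB18 was still closer than MAGEA10 to FATE1. FATE1 stood 579th in likeness to MAGEB18 there, behind MAGEA10 at 331st, and MAGEB18 stood 476th in likeness to FATE1, with MAGEA10 at 520th. In likeness to MAGEA10, MAGEB18 stood 165th and FATE1 384th. Ranks of the values (Spearman's rho) gave another order in control lambs, with FATE1 131st and MAGEA10 918th in likeness to MAGEB18. In likeness to FATE1, MAGEB18 stood 488th and MAGEA10 1472nd by that measure. Of the 100 IDs most like MAGEB18 and the 100 most like FATE1, 38 (38% of each list) were shared over all lambs and also 38 in gossypol lambs alone, but 8 in control lambs alone. MAGEA10 shared 0 of its 100 with either gene in gossypol lambs. Unrelated lists of 100 from so many IDs may also share 0, so nothing is read from this. In control lambs it shared 23 with MAGEB18 and 8 with FATE1.

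The 5 IDs most like each gene, 15 in all, were taken as its nearest neighbours. The closest to MAGEB18 was ENSOARG00000012748 (likeness 0.975). Control lambs averaged 26.4 ± 23.2 CPM of it and gossypol lambs 5.56 ± 4.85 CPM (SD, n = 9 each), a fitted log2 difference of -2.25 ± 0.59 (standard error) with an adjusted p of 0.0972 in edgeR's quasi-likelihood test. The closest to FATE1 was ENSOARG00000012437 (likeness 0.974), at 38.8 ± 23.5 and 18.5 ± 11.0 CPM (SD, n = 9 each). Its fitted log2 difference was -1.07 ± 0.37 (standard error), and its adjusted p was 0.128 in the same edgeR test. Neither passed an FDR of 5%.

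For MAGEA10 the closest ID was ENSOARG00000000582 (likeness 0.956), followed by ENSOARG00000012369 (0.951), paired by the same match of plotted points with SLC4A5, a sodium bicarbonate cotransporter of the cell membrane. SLC4A5 too varied little between gossypol lambs, whose mean was 1.61 ± 0.42 CPM, and widely between control lambs, whose mean was 33.3 ± 41.3 CPM (SD, n = 9 each). Likeness to MAGEA10 in the gossypol lambs alone was 0.187 and -0.144 in these 2 IDs, and over the 5 nearest IDs of MAGEA10 it ran from -0.144 to 0.823. Over the nearest IDs of MAGEB18 it ran from 0.875 to 0.964 and over those of FATE1 from 0.926 to 0.964. These IDs were picked for their likeness over the same lambs, in which MAGEA10 varied almost only among control lambs, so the selection shapes the values within a diet and no difference between the genes is read from them.

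All 15 nearest IDs had lower values in gossypol lambs at an unadjusted p under 0.05 in edgeR's quasi-likelihood test, as did 11.4% of all tested IDs, while 0 of the 15 were higher at that threshold, as were 11.8% of all. At an FDR of 5% 0 of the 15 passed in that test, against 0% of all tested IDs. That 0% depends on the test, since 882 IDs passed with DESeq2 and 645 with edgeR's exact test. The log2 fold changes of the 15 ran from -4.36 to -0.69 with a median of -1.11, where the median over all tested IDs was 0.03. The neighbours were found in the same lambs as the 3 genes, so their diet difference is no independent evidence.

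The diet difference of each gene kept its direction when any 1 lamb was left out. The log2 fold change ran from -3.71 (without H44) to -2.91 (without H22) in MAGEA10, from -2.84 (without H01) to -2.16 (without H22) in MAGEB18 and from -2.89 (without H01) to -2.30 (without H22) in FATE1. Control lamb H22 moved all 3 the most toward 0, and among the gossypol lambs H01 mattered most for MAGEB18 and FATE1.

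**Figure D5:**
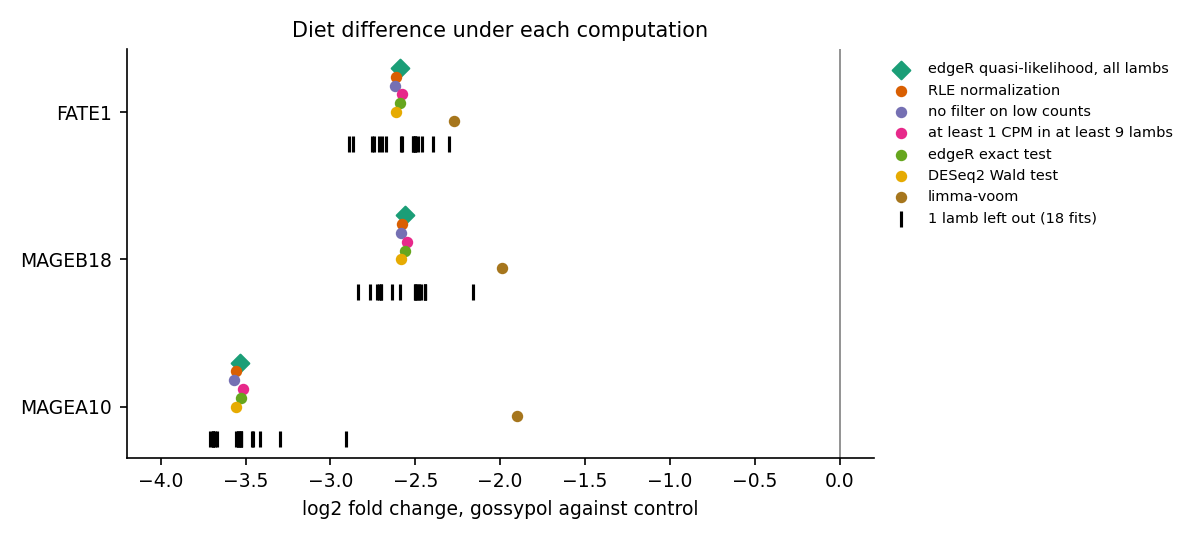
log2 fold change of gossypol against control lambs for each gene under edgeR's quasi-likelihood fit (diamonds), 6 other computations (circles) and each of 18 fits that leave out 1 lamb (ticks). The values of MAGEA10 run from -3.71 to -1.90, the last from limma-voom, while those of FATE1 stay between -2.89 and -2.27.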

How the data were processed

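Per the labels and methods, the authors trimmed single-end poly-A reads (Trim Galore 0.4.4), aligned them to Oar_v3.1 (TopHat2 2.1.1), merged Cufflinks 2.2.1 assemblies with the annotation and used HTSeq for counts per gene ID. Use of strand is not given in the sources used here, so overlapping or antisense genes could share reads. The deposited values are raw read counts, 1 file per lamb, without normalization. Analyses used edgeR 4.0.16 (R 4.3.3). Low IDs were removed by filterByExpr (minimum count 10, minimum total 15), scaled by TMM and compared by the quasi-likelihood test with Benjamini-Hochberg adjustment over all tested IDs. log2 CPM used a prior count of 2. A standard error is the absolute log2 fold change over √F. Correlations used exact permutation tests in SciPy 1.17.1, and none was tested where a gene's lambs of a diet had a gap over 0.4 of the range with at least 2 lambs on each side.

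The genes named are the 3 members and the 5 IDs most like each in deviations from the diet means, of which the closest and SLC4A5 are printed. The genes and lists were chosen with earlier results of these data known. Lists of MAGE genes, other cancer-testis genes and testis cell markers were planned by symbol and not used, because 0 of the 29589 IDs matched the RefSeq gene table. Sequences and positions were not used here. No 2 libraries of a diet agreed within sampling noise (lowest chi-square per degree of freedom 10.9). The labels pair no lambs across diets. Alternatives were RLE scaling, no filter, a filter of 1 CPM in 9 lambs, edgeR's exact test, DESeq2 1.42.0, limma-voom (limma 3.58.1), other scales for correlations and each lamb left out. The diet tests and the order by likeness were tried on simulated data first. The correlation test and the rules for gaps and outliers were not.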

Additional observations from a re-analysis of the deposited data

Results flagged for a closer look

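In control lamb H44 the 10 most counted IDs took 4.62% of the counts, the lowest share of the 9 control lambs. The next lamb was 0.499 of the whole range away, above Dixon's critical value for 9 samples. Several quantities were examined this way in the 9 lambs of each diet, 18 checks in all, and 1 was flagged. Chance flags about 1 check in 20, and some of the quantities come from the same counts, so the checks are not independent. H44 had the lowest FATE1 of the control lambs, 51.8 CPM, and leaving it out moved the log2 fold change of MAGEA10 to -3.71. That move was not particular to H44, since leaving out control lamb H31, H32 or H39 gave -3.69 each. The part of the composition of the H44 library in these values was not tested.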

How the results depend on the processing

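The log2 fold changes of the 3 genes kept their direction under all 24 alternatives run for each, and the largest move was that of MAGEA10 to -1.90 with limma-voom. The number of IDs past an FDR of 5% was 0 in the quasi-likelihood test, with 4327 at an unadjusted p under 0.05, but 882 with DESeq2 and 645 with edgeR's exact test. It was 0 with limma-voom, with 4360 at an unadjusted p under 0.05. With each lamb left out it ran from 0 to 1271, the highest without H44, and was above 0 in 5 of 18 fits, those without H01 (19), H32 (106), H39 (66), H44 and H48 (492). The cause was not tested. The correlation of MAGEB18 and FATE1 in gossypol lambs stayed past the threshold in 13 of 14 alternatives, from 0.814 to 0.931 with 1 lamb left out, and was 0.581 without H01 and H48. The positions by likeness moved with the measure. By Spearman's rho FATE1 stood 32nd to MAGEB18 and MAGEA10 1712th to FATE1. MAGEB18 and MAGEA10 had as few as 16 and 30 counts in a lamb, which limits their ratios there.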
